A study of Macaca fuscata with 18 samples.

Results

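The genes described here build cholesterol, sense its level, move it between compartments and carry it in brain lipoproteins. They were taken by symbol from the table of transcript read counts, with the transcript of highest mean CPM, the read count scaled to library size, for each symbol. All 30 listed genes were found among 19747 symbols (29686 transcript rows), and all 30 passed the filter on low counts, which left 17522 genes for testing. The RNA Seq data came from the anterior subventricular zone (SVZa), the neurogenic tissue that lines the lateral ventricle, of 6 Macaca fuscata monkeys aged 4 to 6 years and of both sexes. In 3 postischemic monkeys (MK503, MK507 and MK506) the blood flow to the whole brain was interrupted for 18 min by arterial clipping. In 3 sham-operated monkeys (MK504, MK501 and MK508) the surgery was done without clipping, and the tissue of both groups was taken 7 days later. From each monkey 3 adjacent fragments, A1, A2 and A3, were cut along the striatal side of the right ventricle, which gave 9 ischemia and 9 sham libraries. No gene was altered in any animal, and each library is a mixture of the cells of 1 fragment, so fewer cells of a type and less RNA per cell cannot be told apart in any value below.

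The brain makes its own cholesterol, because lipoproteins of the blood do not cross the blood-brain barrier in useful amounts. Acetyl-CoA is turned into mevalonate, then into isoprenoid units and squalene, and squalene is closed into a ring and trimmed to cholesterol. When sterols are scarce, SCAP escorts the SREBP transcription factors out of the endoplasmic reticulum, where INSIG proteins otherwise hold them, while oxysterols activate the LXR receptors, which switch on sterol efflux. Much of the brain's cholesterol sits in myelin, astrocytes ship it in APOE particles, neurons dispose of it as 24S-hydroxycholesterol, and cells that take up lipoproteins need NPC1 and NPC2 to release it from lysosomes.

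The libraries held 18076257 to 74551396 counts in ischemia and 19091839 to 57461603 in sham. The counts of the 3 libraries of each monkey were summed, because the monkey is the replicate, and are given as CPM scaled by the TMM method of edgeR. The study's numbered columns paired the monkeys as MK503 with MK504, MK507 with MK501 and MK506 with MK508. Pair 1 stood apart from the other 4 monkeys: the nuclear RNA MALAT1 took 1.243% of counts in MK503 and 1.166% in MK504, against 0.132% or less in the others, and POLE2 took 5.16% to 5.59% in A2MK503, A2MK504 and A3MK504. Of the 30 genes, 22 were lower and 8 higher in pair 1 than in pairs 2 and 3, by ratios of 0.194 (PMVK) to 7.53 (ABCA1). The pair took a median of 59.7% of the variance of log2 CPM of these genes and the condition 4.12%, against 54.9% and 2.97% over all genes. Every value of ischemia is therefore best read beside the sham monkey of the same pair. Of the markers of 8 cell types, none was at 0 in all libraries, and CLIC6 of the choroid plexus was the only one at 0 in any library. Of the ependymal markers 2, DNAH11 and CFAP126, were not analysed here.

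Ischemia was compared with sham across all genes by the quasi-likelihood test of edgeR with the pair as a block. The log2 fold change is ischemia over sham, given with its standard error (SE), and the adjusted p follows Benjamini and Hochberg over all 17522 genes. With 3 monkeys a group and the pair as a block, p-values rest in part on how the differences within pairs vary between the 3 pairs. They also rest on a spread that edgeR estimates from all genes together. Of the 30 genes 0 passed at an adjusted p below 0.05 (0% of all genes did). At a nominal p below 0.05, that is before adjustment, 4 genes were higher (NPC1, CLU, ABCA1 and NR1H2) and 4 lower (PMVK, MVD, IDI1 and FDPS), while 22 did not reach that threshold. The 4 higher genes are 13.3% of the list, and so are the 4 lower ones, against 8.38% of all genes higher and 8.04% lower. DESeq2 at an adjusted p below 0.05 called 2 of the 30 higher, NPC1 and CLU, and 0 lower, against 3.85% and 2.48% of all genes. The median log2 fold change over the list was -0.0098 and that over all genes -0.019.

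These 8 genes lay in separate steps of the pathway. The 4 with lower counts encode early enzymes, between mevalonate and farnesyl diphosphate. The 4 with higher counts encode an LXR receptor, a sterol exporter, a lysosomal sterol transporter and a lipoprotein. The genes were higher in all 3 pairs in 7 cases and lower in all 3 in 6, against 20.4% and 22.8% of all genes, so the steadiness of direction over the list was near that of the tissue as a whole.

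The first section, from the making of HMG-CoA to the epoxidation of squalene, held 8 genes. Of these, 7 had lower values in ischemia, as had 9208 of the 17522 genes tested. A nominal p below 0.05 was reached by 4 of the 7 in edgeR, but in DESeq2 and with library totals alone PMVK reached it and MVD, IDI1 and FDPS did not. Over the section the median log2 fold change was -0.25. It was -0.18, -0.33 and -0.23 in pairs 1, 2 and 3. HMGCS1, the synthase that makes the HMG-CoA from which mevalonate is formed, had 150.0, 145 and 138 CPM in MK503, MK507 and MK506, against 185, 185 and 136 CPM in MK504, MK501 and MK508. It was lower in pairs 1 and 2 and nearly level in pair 3, so its log2 fold change of -0.21 (SE 0.13) did not reach the threshold (adjusted p = 0.445 in edgeR).

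PMVK encodes the kinase that adds the second phosphate to mevalonate. It had 9.76, 47.7 and 40.3 CPM in MK503, MK507 and MK506, against 11.7, 72.9 and 60.7 CPM in MK504, MK501 and MK508. The ischemic monkey was the lower one in each pair, but the level of pair 1 was so far below the others that the groups overlapped. PMVK had a log2 fold change of -0.49 (SE 0.12, adjusted p = 0.216 in edgeR). MVD, the decarboxylase of the next step, had 11.0, 37.9 and 30.8 CPM in ischemia, against 12.1, 46.3 and 44.4 CPM in sham. It too was lower in each pair, with a log2 fold change of -0.32 (SE 0.12, adjusted p = 0.304 in edgeR). Without MK506 or MK508 MVD was at -0.21, and without the 3 libraries with POLE2 reads MVD was at -0.17 and IDI1 at -0.20.

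IDI1 encodes the isomerase that interconverts the isoprenoid units. It had 70.7, 63.7 and 57.1 CPM in the ischemic monkeys, against 81.1, 80.7 and 72.9 CPM in the sham monkeys. All 3 ischemic values lay below all 3 sham values, with a log2 fold change of -0.30 (SE 0.10, adjusted p = 0.267 in edgeR). FDPS, the synthase that joins these units into farnesyl diphosphate, had 46.0, 89.7 and 87.6 CPM in ischemia, against 51.2, 126 and 110 CPM in sham. The ischemic monkey was lower in each pair. The ischemic library was lower in 9 of 9 pairs of fragments, the only gene of the 30 for which that held (1.94% of all genes). The smallest of these differences was -0.0081 on the log2 scale, in A3 of pair 1. FDPS had a log2 fold change of -0.32 (SE 0.11, adjusted p = 0.279 in edgeR).

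The remaining enzymes of this section varied without a common direction. SQLE, squalene epoxidase, an enzyme that limits the rate of the later steps, had 59.6, 71.1 and 71.6 CPM in ischemia, against 68.7, 88.7 and 66.9 CPM in sham. It was lower in pairs 1 and 2 and higher in pair 3 (log2 fold change -0.14, SE 0.12, adjusted p = 0.587 in edgeR). FDFT1, squalene synthase, was almost level at -0.02, and MVK, mevalonate kinase, was at 0.15 with an SE of 0.20.

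**Figure D1:**
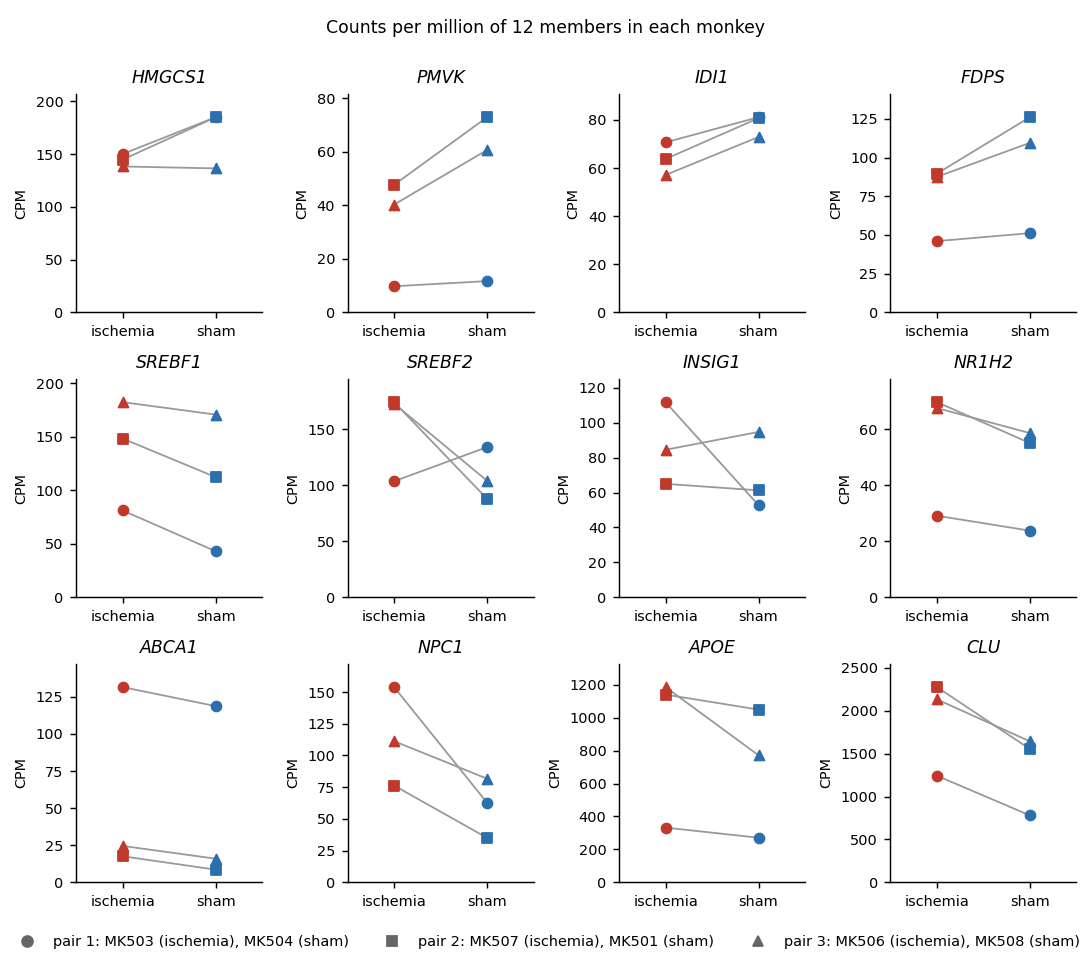
CPM (linear axis from 0) of 12 of the genes in each monkey, with ischemia in red left of sham in blue and a line joining the 2 monkeys of a pair (circles pair 1, squares pair 2, triangles pair 3). The lines of PMVK, IDI1 and FDPS climb towards sham in all 3 pairs and those of SREBF1, NR1H2, ABCA1, NPC1, APOE and CLU descend in all 3, while pair 1 runs against the others for SREBF2.

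None of the 7 genes that act after squalene epoxidase, on the way to cholesterol, reached a nominal p below 0.05, and their median was -0.02. EBP, the isomerase that shifts the sterol double bond, had the lowest log2 fold change of the 30 (-0.51, SE 0.21). It was -0.94 and -0.56 in pairs 2 and 3 and 0.01 in pair 1. Without MK504 or MK503, either of which takes pair 1 out of the comparison, EBP was at -0.75. Without MK507 or MK501, the monkeys of pair 2, it was at -0.29 and -0.26. LSS, which closes squalene into lanosterol, was at 0.15, NSDHL at 0.22, DHCR7 at 0.12, CYP51A1 at -0.05, HSD17B7 at -0.11 and TM7SF2 at -0.02. One further transcript of LSS, NM_001001438, stood at 0.43. Of the 30 genes, 11 had more than 1 transcript row in the table.

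The 5 genes of sterol sensing gave values on both sides of 0. SREBF1 encodes SREBP-1, which drives fatty acid synthesis more than cholesterol synthesis. It had 81.0, 148 and 182 CPM in MK503, MK507 and MK506, against 43.0, 112 and 171 CPM in MK504, MK501 and MK508. It was higher in each pair, with differences of 0.91, 0.40 and 0.10 on the log2 scale, and the fitted value of 0.47 (SE 0.18) lay just past a nominal p of 0.05 (0.0512, adjusted p = 0.305 in edgeR). In 10 of 19 alternatives, DESeq2 among them, SREBF1 reached a nominal p below 0.05. Without MK503 or MK504, and also without the A1 fragments, SREBF1 was at 0.25 and did not.

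SREBF2 encodes SREBP-2, the main activator of the cholesterol enzymes. Its values were 104, 174 and 173 CPM in ischemia, against 134, 87.9 and 104 CPM in sham. Pairs 2 and 3 were higher in ischemia, by 0.99 and 0.73 on the log2 scale, and pair 1 was lower, at -0.37. Over all 3 pairs the log2 fold change was 0.46 (SE 0.29, adjusted p = 0.460 in edgeR), which did not reach the threshold. Leaving out monkeys moved SREBF2 in both directions: it was at 0.86 and 0.87 without MK503 or MK504 (pair 1), where it reached a nominal p below 0.05, but at 0.18 and 0.20 without MK507 or MK501 (pair 2) and at 0.31 without MK506 or MK508 (pair 3). HMGCS1 and SQLE, genes that SREBP-2 is known to activate, were at -0.35 and -0.32 in pair 2 and at 0.02 and 0.10 in pair 3. The SREBP-2 protein was not measured, and a link between SREBF2 and these genes was not tested.

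INSIG1, the sterol-regulated anchor of the SREBPs, had 112, 65.0 and 84.5 CPM in ischemia, against 52.8, 61.3 and 94.7 CPM in sham. The difference lay in pair 1 (1.08), with 0.09 and -0.16 in pairs 2 and 3, and the fitted value was 0.33 (SE 0.26, adjusted p = 0.555 in edgeR). INSIG2, its relative that sterols regulate less, had 30.9, 33.4 and 32.3 CPM in ischemia, against 35.4, 44.1 and 35.7 CPM in sham. With IDI1 it was the second gene whose ischemic values all lay below the sham values. Those 2 of 30 genes stand beside 2.76% of all genes with ischemia wholly lower, and 0 of 30 stand beside 2.44% wholly higher. The log2 fold change of INSIG2 was -0.25 (SE 0.11, adjusted p = 0.342 in edgeR). SCAP was at -0.06, with pair values of -0.13, -0.09 and 0.05.

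The 4 genes of the LXR receptors and of sterol efflux all had higher values in ischemia, as had 8314 of 17522 genes. Their median was 0.28, and 2 of them were at a nominal p below 0.05, against 8.38% of all genes higher. The direction of NR1H3 and ABCG1 differed between pairs. NR1H2, which encodes LXR beta, had 29.1, 69.6 and 67.5 CPM in ischemia, against 23.8, 55.0 and 58.6 CPM in sham. It was higher in each pair by a similar amount (0.29, 0.34 and 0.20), with a log2 fold change of 0.28 (SE 0.10, adjusted p = 0.283 in edgeR). NR1H3, LXR alpha, had low counts in every monkey (0.891 to 3.53 CPM) and was at 0.13 with an SE of 0.28.

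ABCA1, the transporter that loads cholesterol onto apolipoproteins, had 132, 17.5 and 24.5 CPM in MK503, MK507 and MK506, against 119, 8.51 and 15.9 CPM in MK504, MK501 and MK508. Pair 1 was far above the others in both conditions, and the ischemic monkey was the higher one in each pair. The log2 fold change was 0.60 (SE 0.19, adjusted p = 0.254 in edgeR). The second exporter, ABCG1, was at 0.27 (SE 0.18), with -0.19 in pair 1 and 0.63 and 0.38 in pairs 2 and 3. ABCA1 without the A2 fragments was at 0.38, and without MK507 also at 0.38, below the value with all libraries by over 1.5 times in both cases.

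Among the genes of turnover, storage and lysosomal export, NPC1 had the highest log2 fold change of the 30. NPC1 is the membrane protein that passes cholesterol out of late endosomes and lysosomes. It had 154, 76.2 and 111 CPM in ischemia, against 62.7, 35.1 and 81.7 CPM in sham, so that the groups overlapped although the ischemic monkey was higher in each pair. NPC1 had a log2 fold change of 0.95 (SE 0.19), a 1.94-fold difference, with an adjusted p of 0.2055 in edgeR and 0.0009532 in DESeq2. NPC2, its soluble partner, was at -0.31 (SE 0.25), with 0.26, -0.97 and -0.21 in the pairs. This value rested on 1 sham library, A2MK501, without which NPC2 was at -0.0046. It was at -0.02 without the A2 fragments and at -0.59 without MK503 or MK504.

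CYP46A1, the neuronal hydroxylase that makes 24S-hydroxycholesterol, had 77.8, 477 and 322 CPM in ischemia, against 180.1, 469 and 347 CPM in sham. With the fragments summed, the difference lay in pair 1 (-1.21), with 0.02 and -0.11 in the other pairs. The fitted -0.43 (SE 0.28) did not reach the threshold (adjusted p = 0.477 in edgeR). By fragment CYP46A1 was lower in 6 of 9 pairs, among them A1 of pairs 1, 2 and 3 (-1.16, -0.88 and -1.81). It was higher in A2 of pair 2 (1.22) and in A3 of pairs 2 and 3 (0.11 and 0.78). SOAT1, which esterifies cholesterol for storage, was at -0.0011 with an SE of 0.14.

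Both lipoprotein genes had higher values in ischemia in all 3 pairs. CLU, which encodes clusterin, an apolipoprotein and extracellular chaperone, had 1242, 2276 and 2133 CPM in ischemia, against 779.8, 1554 and 1643 CPM in sham. The ischemic monkey exceeded its sham partner by 0.67, 0.55 and 0.38 on the log2 scale. The log2 fold change of CLU was 0.53 (SE 0.17), a 1.45-fold difference, with an adjusted p of 0.248 in edgeR and 0.0146 in DESeq2.

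APOE, the main lipoprotein of astrocytes, had 332, 1141 and 1186 CPM in ischemia, against 271, 1049.6 and 772 CPM in sham. The difference was 0.29, 0.12 and 0.62 in the pairs, and the log2 fold change was 0.34 (SE 0.17, adjusted p = 0.365 in edgeR). Without MK506 or MK508, the pair with the widest difference, APOE was at 0.21. APOE was the only one of the 30 genes that was higher in ischemia in 9 of 9 pairs of fragments (1% of all genes). The smallest of these differences was 0.030 on the log2 scale, in A1 of pair 2. Markers of astrocytes were measured beside APOE and CLU. Of 10, 6 had higher and 4 lower values, from -0.25 to 1.25 with a median of 0.25. At a nominal p below 0.05, 4 were higher and 0 lower. The summed level of the 10 was 15873, 10544 and 13672 CPM in ischemia, against 12684, 7331 and 9686 CPM in sham. The part of astrocytes in the levels of APOE and CLU was not tested.

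**Figure D2:**
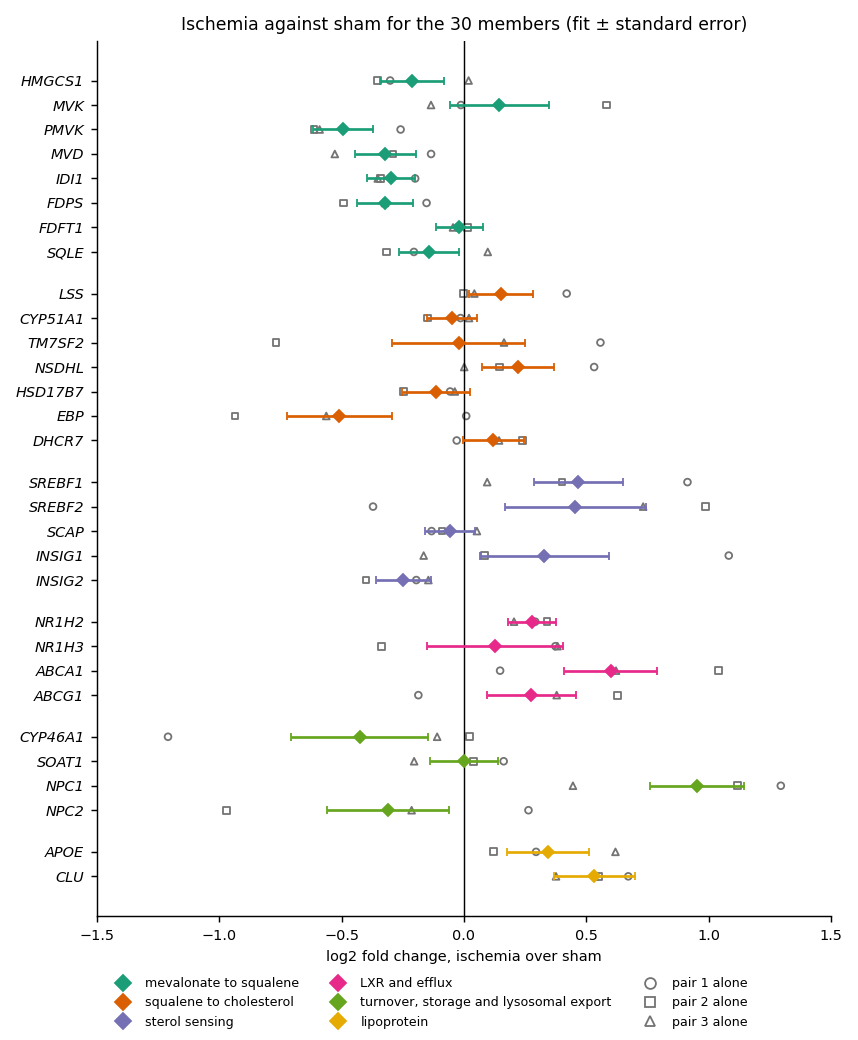
Log2 fold change of ischemia over sham (horizontal axis) for the 30 genes, coloured by step of the pathway. Diamonds with bars are the fitted value with 1 standard error, and open circles, squares and triangles are pairs 1, 2 and 3 alone. The genes from HMGCS1 to SQLE, which the legend names as mevalonate to squalene, lie mostly left of 0 (median -0.25) and the efflux and lipoprotein genes right of it (medians 0.28 and 0.44), with NPC1 farthest right at 0.95.

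The counts of genes at a nominal p below 0.05 depended on which tissue entered. Without the A1 fragments 1 gene of the 30 was higher and 0 lower, without MK507 or MK501 also 1 and 0, without MK506 or MK508 2 and 0, and without the A2 fragments 2 and 1. Without the pair block, 0 were higher and 0 lower. The counts over all genes were lower in the same fits. Against 1469 higher and 1409 lower with all libraries, they were 426 and 670 without the A1 fragments, 702 and 641 without MK507, 766 and 580 without MK501, 1131 and 883 without MK506, 1139 and 872 without MK508, 1072 and 547 without the A2 fragments, and 111 and 110 without the block. Not all fits lowered the counts. Without MK503 or MK504 5 of the 30 were higher and 6 lower (2090 and 1793, or 2143 and 1713, of all genes). Without the A3 fragments 5 were higher and 3 lower (2083 and 1844 of all genes). Without the libraries with POLE2 reads 8 were higher and 2 lower (1610 and 1292 of all genes). When libraries were scaled by their totals alone, 19 of the 30 values were higher and 11 lower, against 14 and 16 with TMM. The median of all genes was then 0.038.

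The fragments themselves were compared within monkeys over all 18 libraries. Of the 30 genes, 6 reached a nominal p below 0.05 for a difference between A1, A2 and A3 (MVD, SQLE, LSS, NSDHL, EBP and CYP46A1), against 11.2% of 17323 genes. None passed an adjusted p below 0.05 in edgeR, of these or of all genes (smallest 0.428), while DESeq2 called 1.09% of all genes, none of them among the 30. These and the genes of the next paragraph are named because their values were seen. On the log2 scale A3 minus A1 was 1.17 for CYP46A1, 0.49 for SQLE, 0.49 for EBP and 0.40 for MVD, and it was -0.41 for NSDHL and -0.38 for LSS. CYP46A1 averaged 134, 309.99 and 465 CPM in A1, A2 and A3 of the ischemic monkeys, against 299, 299 and 389 CPM in A1, A2 and A3 of the sham monkeys.

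The difference between ischemia and sham varied between fragments for 3 of the 30 genes at a nominal p below 0.05, INSIG1, NPC1 and NR1H2, against 9.82% of all genes. NPC1 averaged 184, 110.2 and 43.0 CPM in A1, A2 and A3 of the ischemic monkeys, against 53.9, 54.3 and 81.2 CPM in the same fragments of the sham monkeys. It was higher in ischemia in the A1 and A2 fragments of every pair. In A3 it was at -0.17, 0.37 and -2.03 on the log2 scale in pairs 1, 2 and 3.

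INSIG1 followed the same order, with 122, 85.5 and 51.2 CPM in A1, A2 and A3 of the ischemic monkeys, against 59.1, 67.9 and 90.1 CPM in sham. Its sham mean in A3 rested on A3MK508, with 155 CPM, against 57.8 CPM in A3MK504 and 57.5 CPM in A3MK501. NPC1 likewise stood at 154 CPM in A3MK508, against 60.2 CPM in A3MK504 and 29.4 CPM in A3MK501. NR1H2 had 65.9, 54.2 and 45.8 CPM in the ischemic fragments, against 39.8, 50.01 and 51.1 CPM in sham. The adjusted p of the interaction in edgeR was 0.305 for INSIG1 and NPC1 and 0.336 for NR1H2, and 0 of all genes passed. DESeq2 called 2.92% of all genes, with adjusted p of 0.00671 for INSIG1, 0.00651 for NPC1 and 0.123 for NR1H2. Without the sham library A3MK508 the nominal p in edgeR was 0.00258 for INSIG1, 0.00161 for NPC1 and 0.0269 for NR1H2. Without the sham library A2MK501, 8 of the 30 genes reached a nominal p below 0.05 in this test, and 0% of all genes passed when adjusted. The share of all genes at the nominal p is not given for that fit. The 8 therefore cannot be read as particular to these genes.

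**Figure D3:**
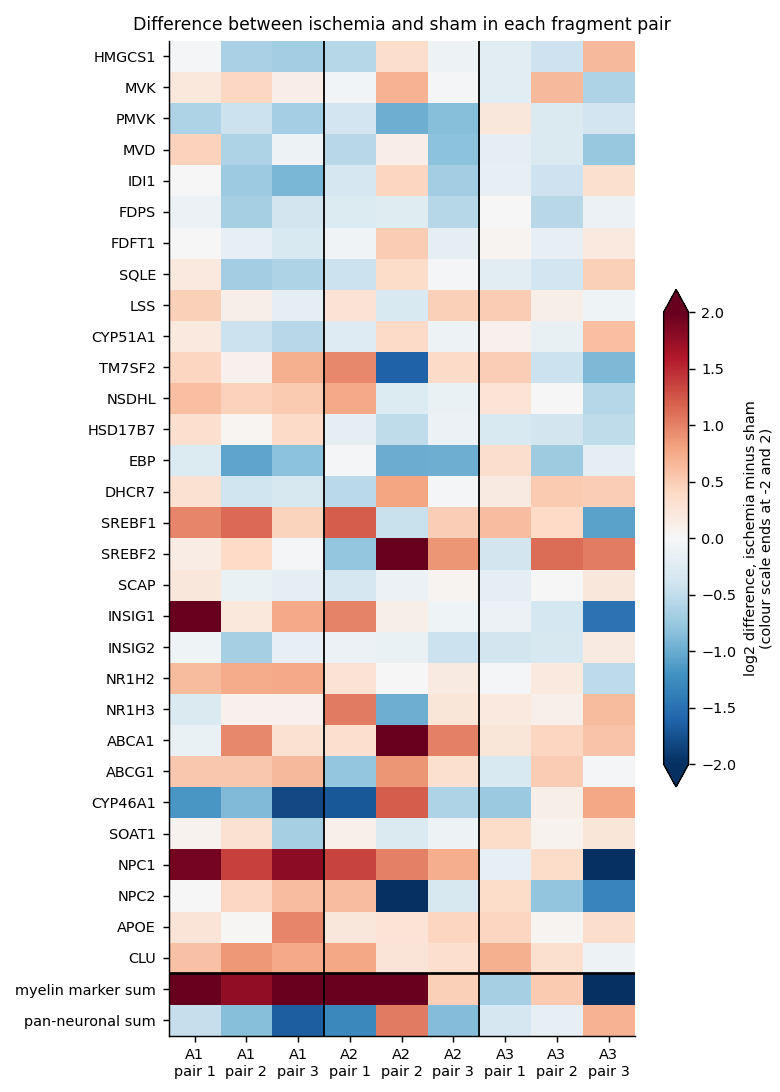
Log2 difference of ischemia minus sham in each of the 9 pairs of fragments (columns, grouped as A1, A2 and A3) for the 30 genes (rows), with the summed myelin and pan-neuronal markers in the 2 bottom rows; red is higher and blue lower in ischemia, and the colours end at -2 and 2. NPC1 changes from red to blue in the same columns as the myelin sum. APOE is above 0 in all 9 columns and FDPS below 0 in all 9. Some of their cells are near white (APOE 0.030 in A1 of pair 2, FDPS -0.0081 in A3 of pair 1).

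The myelin markers, whose levels differed widely between fragments, were set beside these genes. Of 10 markers of mature oligodendrocytes, 10 were higher in ischemia at a nominal p below 0.05, with a median log2 fold change of 1.65 (2.66 in A1, 1.85 in A2 and -0.99 in A3). Their summed level was 15213, 13555 and 23444 CPM in MK503, MK507 and MK506, against 2859, 3759 and 19070 CPM in MK504, MK501 and MK508. Over libraries it ran from 1627 to 46811 CPM (median 16639) in ischemia and from 1935 to 48251 CPM (median 3878) in sham, and it was higher in ischemia in 7 of 9 pairs of fragments.

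NPC1 and NR1H2 had the same sign as this sum in 9 of 9 pairs of fragments (2.27% of all genes). CLU and ABCG1 had it in 8, and INSIG1, SREBF1, APOE and MVK in 7. The share of all genes was counted for 9 of 9 alone. APOE was higher in all 9, so its 7 follows from the sum alone. NR1H2 was near level in A2 of pair 2 (0.0028) and A3 of pair 1 (-0.034). There the sum was at 2.21 and -0.67 on the log2 scale. NPC1 had 273 CPM in A1 of MK503 and 181 CPM in A1 of MK506, where the myelin sum was 31593 and 46811 CPM. In sham its highest value, 154 CPM, came from A3MK508, the library with the highest myelin sum of all. The other sham libraries had 29.4 to 72.0 CPM of NPC1. Without the A1 fragments NPC1 was at 0.42 and did not reach the nominal threshold (adjusted p = 0.769 in edgeR). It was, without A3MK508, at 1.09 (adjusted p = 0.0591 in edgeR) and, without the A3 fragments, at 1.40, where it passed (adjusted p = 0.0348 in edgeR). Without the A1 fragments INSIG1 was at -0.08 and NR1H2 at 0.04. The part of the myelin content in the levels of NPC1, NR1H2 and INSIG1 was not tested.

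**Figure D4:**
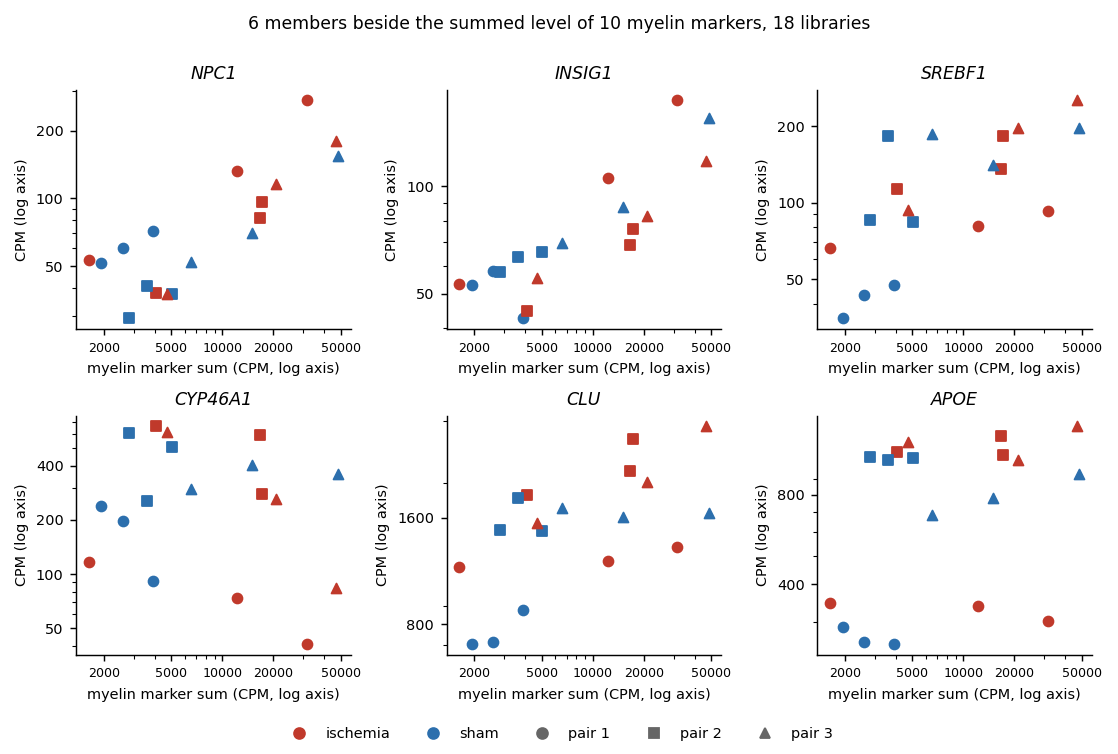
CPM of 6 of the genes (vertical, log axis) against the summed CPM of 10 myelin markers (horizontal, log axis) in each of the 18 libraries, with ischemia in red, sham in blue, and circles, squares and triangles for pairs 1, 2 and 3. The libraries with the highest myelin sums, A1 of MK506 and A3 of MK508, lie near each other for NPC1 (181 and 154 CPM) although their conditions differ, and the APOE points separate by pair 1 against the rest.

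Neuronal markers were set beside the same genes. The pan-neuronal markers had a median log2 fold change of -0.35 (2 of 10 lower and 1 higher at a nominal p below 0.05), and their sum was higher in ischemia in 2 of 9 pairs of fragments. The striatal projection neuron markers had a median of -0.85, with 7 of 10 lower. HMGCS1 had the same sign as the pan-neuronal sum in 9 of 9 pairs of fragments (4.61% of all genes). IDI1, FDFT1, SQLE, INSIG2 and CYP46A1 had it in 8, and MVD, FDPS and CYP51A1 in 7. SREBF1 had it in 0 of 9. FDPS was lower in all 9, so its 7 follows from the sum alone. The part of the neurons in the lower values of the genes from HMGCS1 to SQLE was not tested.

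In the remaining cell types, 0 of 10 microglia markers, 3 of 10 endothelial markers (lower, median -0.50) and 0 of 8 ependymal markers reached a nominal p below 0.05. Choroid plexus markers had a median of -2.37, with 6 of 10 lower and 1 higher at that threshold. Their summed level was 232, 337 and 286 CPM in MK503, MK507 and MK506, against 2159.6, 22351 and 576 CPM in the sham monkeys MK504, MK501 and MK508. Of the 10 markers, 7 lay wholly lower in ischemia (2.76% of all genes). The sham library A2MK501 stood apart with a sum of 74481 CPM, in which TTR took 4.25% of the counts. The sham libraries A1MK504 (6476 CPM), A3MK501 (2723 CPM) and A1MK508 (1296 CPM) also lay above every ischemia library, of which the highest had 592 CPM. In A2MK501 NPC2 stood at 256 CPM, TM7SF2 at 117 CPM and NR1H3 at 6.44 CPM, each the highest of the 18 libraries. PMVK at 112 CPM, EBP at 37.9 CPM, HSD17B7 at 19.4 CPM and SCAP at 131 CPM were also highest there, the next library having 67.2, 27.7, 17.1 and 128 CPM. MVK at 6.70 CPM, ABCA1 at 2.82 CPM and SREBF2 at 43.8 CPM were the lowest, the next library having 6.73, 10.3 and 92.4 CPM. The share of all genes that were highest or lowest in A2MK501 was not counted. Without A2MK501 the log2 fold change was 0.22 for TM7SF2, against -0.02 with it, 0.32 for NR1H3, against 0.13, -0.39 for PMVK, against -0.49, and -0.46 for EBP, against -0.51. The part of choroid plexus tissue in these values was not tested.

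Other genes of the same pathways were counted as a list that holds none of the 30. Of 52 listed, 49 were tested: 10 were higher, 1 was lower and 38 did not reach a nominal p below 0.05 in edgeR, and 0 passed at an adjusted p below 0.05 (DESeq2 called 4 higher). The same thresholds stand at 8.38% of all genes higher and 8.04% lower in edgeR, and at 3.85% higher in DESeq2. Their median log2 fold change was 0.09. LRP1, a receptor for APOE particles, was at 0.14 and FASN, fatty acid synthase, at 0.21.

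CYP7B1, which hydroxylates oxysterols, had 149, 7.10 and 15.6 CPM in ischemia, against 47.0, 1.23 and 6.45 CPM in sham. It was higher in each pair (log2 fold change 1.78, SE 0.26, adjusted p = 0.2055 in edgeR and 9.704e-09 in DESeq2). LIPA, the lysosomal lipase that frees cholesterol from its esters upstream of NPC1, had 134, 72.2 and 96.0 CPM in ischemia, against 30.3, 30.5 and 80.6 CPM in sham (log2 fold change 1.21, SE 0.37). Without MK503 or MK504 LIPA was at 0.75. STARD3, which moves sterol between late endosomes and other membranes, had 34.0, 66.3 and 77.7 CPM in ischemia, against 25.4, 45.3 and 51.5 CPM in sham. Its log2 fold change of 0.52 had an SE of 0.10, and it was higher in 9 of 9 pairs of fragments.

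The desaturase SCD stood at 0.92 (SE 0.21), FADS2 at 0.42, the acetyl-CoA synthetase ACSS2 at 0.48, the receptor VLDLR at 0.38, the LXR partner RXRA at 0.32 and ERLIN2, which acts on sterol sensing in the endoplasmic reticulum, at 0.26. ACAT2, which makes the acetoacetyl-CoA that HMGCS1 uses, was the only gene of this list lower at a nominal p below 0.05 (-0.32, SE 0.12). In all, 18 of the 49 had lower values. LIPA and ACSS2 shared the sign of the myelin sum in 9 of 9 pairs of fragments, as NPC1 did, and SCD, CYP7B1 and VLDLR in 8. In A3 of pair 1 LIPA was near level (-0.012). Without the A1 fragments LIPA was at 0.58, SCD at 0.47, VLDLR at 0.09 and ACSS2 at 0.04, none at a nominal p below 0.05, while CYP7B1 (1.36) and STARD3 (0.47) were still below it.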

How the data were processed

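Total RNA of 18 SVZa libraries was sequenced by the authors on single reads of 50 bases. Base calling used CASAVA (1.8.2) and quality control FastQC (0.10.0). TopHat2 (2.0.8) placed the reads on the Macaca mulatta genome, and bedtools (2.16.2) tallied them over RhesusBase gene models, without a stated use of strand. The deposited values are whole-number counts for human RefSeq transcripts carried over to the macaque, with no normalization, so reads shared between transcripts or near-identical genes cannot be told apart. The A and MK numbers of the libraries were read as fragment and monkey.

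Counts were summed per monkey and analysed with edgeR (4.0.16; filterByExpr, TMM, robust quasi-likelihood test, prior count 2) in R (4.3.3). DESeq2 (1.42.0) was an alternative, and others are given in the closing section. Fragments and their interaction with the condition were tested on 18 libraries with the monkey as a block (17323 genes). The threshold was 0.05. The biological coefficient of variation was 0.212 in the fit with the pair as a block. The spread between monkeys left after the pairs, more than counting error, therefore sets the precision at these depths. The edgeR tests of ischemia, of fragments and of their interaction were also run on simulated counts. Those counts held no set differences between pairs, and the libraries of a monkey were drawn independently. They therefore do not show how the fits handle such differences.

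The monkey pairs came from the numbered columns of the study's transcript table, each of which matched 1 monkey over 1687 rows (the median absolute log2 difference was at most 0.0355, and at least 0.185 for the next monkey). Deviations from the group mean had r = 0.874, 0.767 and 0.65 between the monkeys of a pair across genes, which are not independent replicates, and -0.786 to 0.622 between monkeys of different pairs.

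Monkeys are described by their values where a gene reached a nominal p below 0.05, where the groups did not overlap, and for 9 genes set by name (SREBF1, SREBF2, INSIG1, HMGCS1, SQLE, ABCA1, APOE, CLU and CYP46A1). The 30 genes and the other lists were chosen with earlier results of these data known. Of the other list, genes were named where they reached that p, beside LRP1 and FASN, and a few of its genes are counted but not reported by name. Sequences were not used here, nor were in situ hybridization, protein or mouse data. No column of the table belonged to other samples.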

Additional observations from a re-analysis of the deposited data

Results flagged for a closer look

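In 4 of the 60 groups of 9 libraries tested, 1 library lay farther from the others than Dixon's limit allows, and chance flags about 1 group in 20. HMGCS1 stood at 86.1 CPM in A1 of MK506 among the ischemia libraries, against 134 CPM in the nearest one. NR1H3 stood at 0.491 CPM in A1 of MK503, against 1.39 CPM in the nearest ischemia library. ABCG1 stood at 59.2 CPM in the same library, A1 of MK503, against 40.8 CPM in the nearest one. SREBF2 stood at 43.8 CPM in A2 of MK501 among the sham libraries, against 97.7 CPM in the nearest one, and A2 of MK501 is the library with the highest choroid plexus sum.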

How the results depend on the processing

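Counts given as higher and lower refer to the 30 genes at a nominal p below 0.05 unless all genes are named. With library totals alone 1, PMVK, was lower, and FDFT1 (0.039), CYP51A1 (0.0097), TM7SF2 (0.035), SCAP (0.0014) and SOAT1 (0.056) turned positive. Over all genes DESeq2 gave 661 higher and 426 lower (adjusted p below 0.05), with 2 of the 30, PMVK and EBP, lower at a nominal p. In the fragments it called 1.09% of all genes, and in the interaction 2.92%, with 5 of the 30 at a nominal p. Without the replicate block, which the monkey pairs give, 0 were higher and 0 lower, and SOAT1 was at 0.021. With the libraries as 9 against 9, which counts the fragments of a monkey as independent, 339 of all genes were higher and 553 lower (adjusted), and SOAT1 was at 0.0059. Without the filter on low counts SOAT1 was at 0.0034. Without the A1 fragments 1 was higher and 0 lower, and FDFT1 (0.025), CYP51A1 (0.042), INSIG1 (-0.077) and SOAT1 (0.035) changed sign. Without the A2 fragments 2 were higher and 1 lower, 1 of all genes was higher (adjusted), and TM7SF2 (0.12) and SOAT1 (0.020) changed sign. Without the A3 fragments 248 of all genes were higher and 34 lower (adjusted), and TM7SF2 (0.070), HSD17B7 (0.0086) and DHCR7 (-0.0046) changed sign.

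The alternatives that leave out single libraries were chosen after the data were seen. Without A2MK501, TM7SF2 was at 0.22 and SOAT1 at 0.0032, and 8 of the 30 genes reached a nominal p below 0.05 in the interaction. Without A3MK508, TM7SF2 was at 0.033. Without the libraries in which POLE2 took 5.16% or more of the counts, 8 were higher and 2 lower, and SQLE (0.021), CYP51A1 (0.039) and SCAP (0.025) turned positive.

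Leaving out 1 monkey at a time takes its pair out of the comparison. It gave 1 to 5 higher and 0 to 6 lower of the 30, and 0 to 7 higher and 0 to 8 lower of all genes (adjusted). For the fragments it gave 1 to 7 of the 30, and for the interaction 2 to 5. The share of all genes at a nominal p is not given for the fragment and interaction fits of this section. Across these fits MVK ran from -0.074 to 0.29, CYP51A1 from -0.081 to 0.026, TM7SF2 from -0.30 to 0.38, INSIG1 from -0.039 to 0.59, NR1H3 from -0.011 to 0.41, SOAT1 from -0.082 to 0.10 and NPC2 from -0.59 to 0.044. The cause of these changes was not tested. All 8 genes named at a nominal p below 0.05 kept their direction in all 19 alternatives. NPC1 kept its nominal call in 16 of them, PMVK, ABCA1 and CLU in 13, FDPS in 10, NR1H2 in 8, IDI1 in 7 and MVD in 5, and a call lost with fewer samples is not shown to be a weaker effect.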
